A study of Mus musculus with 12 samples.

Results

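A set of 7 lineage transcription factor genes of small cell lung cancer, Neurod1, Insm1, Isl1, Nkx2-1, Foxa1, Foxa2 and Prox1, were followed across 3 mouse tumor lines in which Nfib was lowered or raised. The genes are a list of names, drawn up with earlier results of these data known, and all 7 were found among the 23226 features of the expression table that carry 1 gene name. RNA was sequenced in 12 samples, 2 in each of 6 groups. Of the lines, 16T and KP1 are described by the labels as high in Nfib and received either the control shRNA shLuc or the Nfib shRNA sh2. The third, KP22, is described as low in Nfib and received either Nfib cDNA or the vector without an insert. All 3 are tumor-derived lines with the genotype Trp53-/-;Rb1-/-, in the controls as in the treated groups, and they grow as floating spheres. The labels do not say whether a line is 1 clone, which promoter drives the vectors, or whether the duplicates are separate cultures, so the p-values measure only the spread between these samples, which may be technical. The table held the authors' comparisons and no values per sample. Each value below is therefore a log2 fold change with its SE, and the depth and spread of single libraries are unknown here.

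These are lineage factors, and not all of them are particular to neuroendocrine cells. NKX2-1, a homeodomain protein, specifies lung epithelium, and FOXA1 and FOXA2 are forkhead proteins that open chromatin at endodermal genes. INSM1 is a zinc finger repressor used as a diagnostic marker of neuroendocrine tumors. ISL1 is a LIM homeodomain protein, NEUROD1 a basic helix-loop-helix activator and PROX1 a homeodomain protein, all active in neural and endocrine precursors. NFIB, the perturbed protein, belongs to the nuclear factor I (NFI) family, which binds a palindrome made of TTGGC and its reverse complement with 5 bases between them, or a single arm of it.

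The promoters of Isl1, Nkx2-1 and Foxa2 are shown because they were the members whose window held the NFI arm TTGGC, given in capitals on whichever strand it lies. Each run is the 250 bases before the transcript start on the minus strand, 5′ to 3′, from RefSeq on GRCm38.p6, the same assembly as the mm10 of the files. In the GENCODE annotation, exon sequence of Isl1 itself lies within the Isl1 run, while the Nkx2-1 and Foxa2 runs hold no exon. Isl1 is chr13:116309689-116309938, Nkx2-1 is chr12:56536909-56537158 and Foxa2 is chr2:148046970-148047219.
Isl1: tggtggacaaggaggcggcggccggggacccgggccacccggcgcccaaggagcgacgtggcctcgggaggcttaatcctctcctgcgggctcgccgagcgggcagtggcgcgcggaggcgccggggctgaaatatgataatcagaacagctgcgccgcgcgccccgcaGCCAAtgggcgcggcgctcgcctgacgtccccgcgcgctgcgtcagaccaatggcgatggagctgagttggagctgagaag
Nkx2-1: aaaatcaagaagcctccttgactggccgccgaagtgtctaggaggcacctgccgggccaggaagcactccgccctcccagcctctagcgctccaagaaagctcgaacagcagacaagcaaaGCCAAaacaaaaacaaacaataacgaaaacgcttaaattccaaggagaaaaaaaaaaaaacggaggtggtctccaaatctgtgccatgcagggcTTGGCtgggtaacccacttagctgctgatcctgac
Foxa2: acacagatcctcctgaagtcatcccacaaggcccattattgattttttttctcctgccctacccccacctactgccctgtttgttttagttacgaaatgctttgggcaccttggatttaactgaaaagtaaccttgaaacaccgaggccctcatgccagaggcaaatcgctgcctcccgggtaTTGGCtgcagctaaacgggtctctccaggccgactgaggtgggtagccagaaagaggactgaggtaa
The search covered 250 bases before to 50 bases after each start, on both strands, in the 6 members with a window in that table. Of the 6, 3 held the arm in the 5′-most window and 0 held the full palindrome, whereas 46.7% of all 32851 windows held the arm and 12 held the palindrome. In Isl1 the arm begins 81 bases before the start, and in Foxa2 it begins 67 bases before the start. Both of these overlap the letters CCAAT, the box bound by NF-Y, while those of Nkx2-1, which begin 129 and 35 bases before the start, do not. Foxa2 has windows at 3 starts and Prox1 at 2, and the positions given here are those of the 5′-most. Window 3 of Foxa2 also held 1 arm, while its window 2 and both Prox1 windows held 0. A match describes the letters only.

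The samples were checked first. The authors' deposited table lists Nfib at a log2 fold change of -1.08 ± 0.035 (SE) for 16T, -1.32 ± 0.035 for KP1 and 1.80 ± 0.036 for KP22, and the direction of each heading was read from these values. The shift in Nfib thus differed in size between lines. All 10 pulmonary neuroendocrine markers were tested, and their mean normalized counts sum to 166553, with none at 0. The same sum was 691 for 10 leukocyte, 4117 for 10 fibroblast, 3379 for 10 endothelial and 3868 for 10 airway markers, with 1, 1, 2 and 2 of them at 0. Among the leukocyte markers Cd79a, named after its values were seen, was called in each line, at -0.63 ± 0.14 (16T), -0.63 ± 0.15 (KP1) and 1.05 ± 0.21 (KP22) in the authors' deposited table. Of the fibroblast markers 4 of 6 tested were called in 16T, 2 of 6 in KP1 and 3 of 9 in KP22. For the endothelial markers these counts were 2 of 6, 3 of 6 and 3 of 7, and for the airway markers 3 of 5, 3 of 5 and 1 of 7. Of the 10 pulmonary neuroendocrine markers 8 were called in 16T (6 higher, 2 lower), 10 in KP1 (7 and 3) and 9 in KP22 (1 and 8). Over all genes 45.3%, 37.2% and 38.4% were called. The part of other cell types in the results was not tested.

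The members lay far apart in level. The authors' deposited table gives a mean normalized count over all libraries, which per kb of counted exon was 5269 for Insm1, 4211 for Nkx2-1, 2847 for Foxa2, 2428 for Prox1, 2417 for Foxa1, 661 for Isl1 and 119 for Neurod1. Of genes whose mean is 10 or more, 95.1% lay at or below Insm1 and 26.1% at or below Neurod1 on this scale. These levels are means over 3 lines and both states of Nfib, without a spread over samples, so neighbours in the order, such as Prox1 and Foxa1, were not told apart. A low mean can also hide 1 line with a high level. Whether the deposited means already hold a correction for gene length is not known here. In mm10 the counted exons span chr12:56531935-56536908 for Nkx2-1, chr12:57540632-57546121 for Foxa1, chr2:148042877-148046969 for Foxa2, chr13:116298270-116309688 for Isl1, chr2:79452641-79456636 for Neurod1 and chr1:190121777-190170680 for Prox1, all on the minus strand. Insm1 is a single exon on the plus strand at chr2:146221997-146225018. Both Neurod1 and Prox1 share counted exon sequence with other annotated genes. For Neurod1, 240 of 2494 bases overlap Gm26755 on the other strand or Cerkl on the same strand, and for Prox1, 133 of 4137 bases overlap Prox1os. Whether the counting used strand is not stated, so reads from the opposite strand may be included.

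Most members moved in each line, mostly by small amounts. In 16T with the Nfib shRNA 4 of 7 rose and 1 fell, and in KP1 4 rose and 1 fell. In KP22 with Nfib cDNA 3 rose and 2 fell. A gene is called changed where its adjusted p in the authors' deposited table (the Wald test of their fit) was below 0.05. The background was high. In 16T 45.3% of 14504 tested genes were called (20.0% higher, 25.3% lower), in KP1 37.2% (17.6% higher, 19.6% lower) and in KP22 38.4% of 17544 (19.5% higher, 18.8% lower). In the deposited mean of both knockdown effects 5 members rose and 1 fell, where 45.3% of genes were called (20.2% higher, 25.1% lower). Against a log2 change of 0.5 the authors' deposited table calls 0 members in 16T, 2 in KP1 (Nkx2-1 and Isl1), 1 in the mean of both (Nkx2-1) and 2 in KP22 (Isl1 and Neurod1), beside 5.25%, 4.58%, 5.40% and 7.66% of tested genes. The members' median log2 fold change was 0.13 (16T), 0.23 (KP1) and 0.12 (KP22), beside -0.05, -0.02 and 0.04 over all genes tested. All 7 members passed the authors' filter on low means in each comparison. The background was not matched for level, and the median of the members' mean normalized counts was 7703. The median SE over all genes tested was 0.099 (16T), 0.098 (KP1) and 0.131 (KP22), above the SE of most members.

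**Figure D1:**
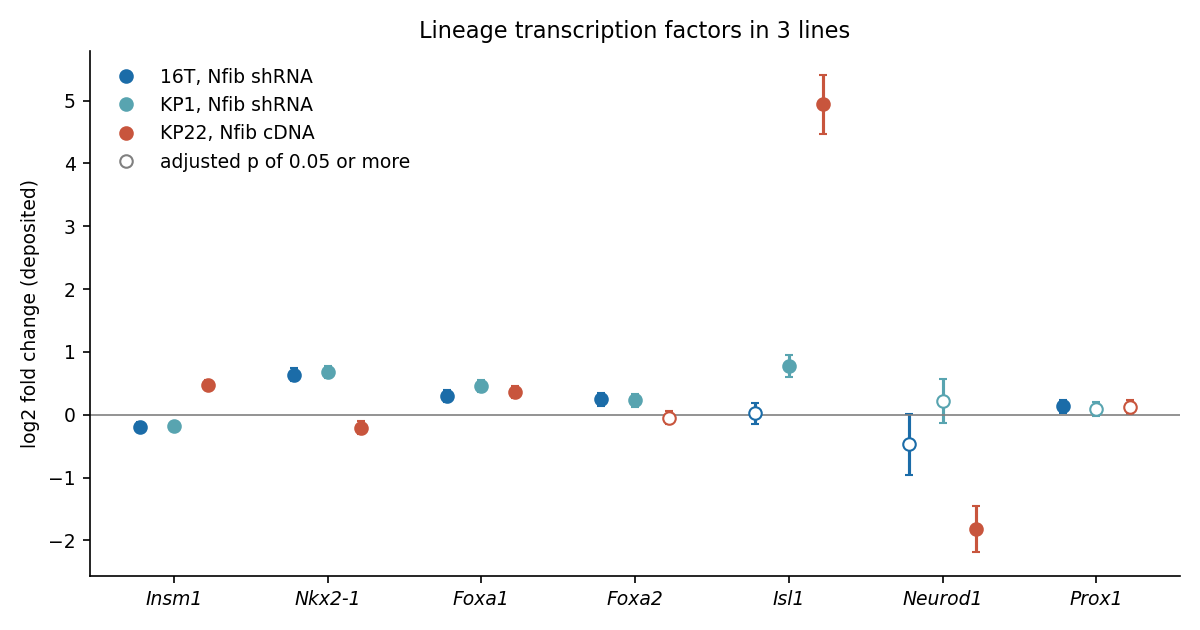
Log2 fold change (vertical axis, deposited values) of the 7 members in 16T and KP1 with the Nfib shRNA and in KP22 with Nfib cDNA. Bars are 95% intervals, and open points have an adjusted p of 0.05 or more. Isl1 in KP22, at 4.94, and Neurod1 in KP22, at -1.82, stand away from the other points, which lie between -0.47 and 0.78.

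Nkx2-1, the lung lineage factor, rose where Nfib was lowered and fell slightly where it was raised. The authors' deposited table gave 0.64 ± 0.051 in 16T, a 1.55-fold rise (adjusted p = 1.75e-33), and 0.68 ± 0.051 in KP1 (adjusted p = 5.73e-39). In KP22 it gave -0.21 ± 0.051, or 86.6% of the empty vector level (adjusted p = 0.000255). Both knockdown lines were higher by nearly the same amount, and the difference of 16T minus KP1 was -0.05 ± 0.072, with a 95% interval from -0.19 to 0.10. A separate piece of the gene repeated this pattern. The 419 bases merged from overlapping exons are counted as a feature of their own, at 0.78 ± 0.081, 0.86 ± 0.080 and -0.26 ± 0.081 in the authors' deposited table, the adjusted p being 1.38e-20, 3.89e-25 and 0.00432. These exons come from the same libraries and are no further replicate. In bulk RNA, fewer cells of a type and less RNA per cell cannot be told apart, here and below.

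Near Nkx2-1 on chromosome 12, E030019B13Rik and Mbip were called in the direction of Nkx2-1 in each line. E030019B13Rik, a long noncoding RNA that RefSeq lists as Sfta3-ps with the synonym Nanci, lies on the same strand, 2.51 kb beyond the 3′ end of Nkx2-1 (chr12:56490428-56529420). It had 1.95 ± 0.081 (16T), 1.18 ± 0.078 (KP1) and -0.86 ± 0.079 (KP22) in the authors' deposited table (adjusted p = 1.78e-126, 1.45e-50 and 4.35e-26). The rise was larger in 16T than in KP1 by 0.76 ± 0.11 (adjusted p = 2.74e-10, normal test of the difference with Benjamini-Hochberg adjustment). Mbip, 186 kb away, encodes a protein that binds MAP3K12 and was singled out after its values were seen. It had 0.59 ± 0.069, 0.71 ± 0.066 and -0.42 ± 0.063 in the authors' deposited table, the adjusted p being 2.72e-16, 8.23e-26 and 1.75e-10.

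No other gene tested within 1 Mb was called in this pattern. C87198, Nkx2-9, Pax9 and Slc25a21 lie nearer to Nkx2-1 than Mbip does, and none of them was called in 16T or KP1. Of these, Pax9 had the smallest SEs, at 0.18 ± 0.12 (16T) and -0.30 ± 0.13 (KP1) in the authors' deposited table. C87198 had 0.23 ± 0.47 and 0.34 ± 0.46 there, and Nkx2-9 and Slc25a21 also had low means and large SEs. For C87198 and Nkx2-9 a rise as large as that of Nkx2-1 is not excluded in either line. Gm19990, 266 kb from Nkx2-1, rose in 16T (0.82 ± 0.082) in the authors' deposited table but fell in both KP1 (-0.45 ± 0.089) and KP22 (-1.23 ± 0.077). Of the 11 genes tested within 1 Mb in 16T, 4 rose and 0 fell, and in KP1 2 rose and 2 fell. In KP22 1 of 13 rose and 3 fell, the rise being the homeobox gene Pax9 at 1.05 ± 0.42 in the authors' deposited table. Foxa1 lies on the same chromosome. Of the genes within 1 Mb of it 0 of 7 were called in 16T, 1 of 7 in KP1 (Mipol1, -0.59 ± 0.17) and 1 of 9 in KP22 (Pax9) in the authors' deposited table. Over all genes 45.3%, 37.2% and 38.4% were called.

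**Figure D2:**
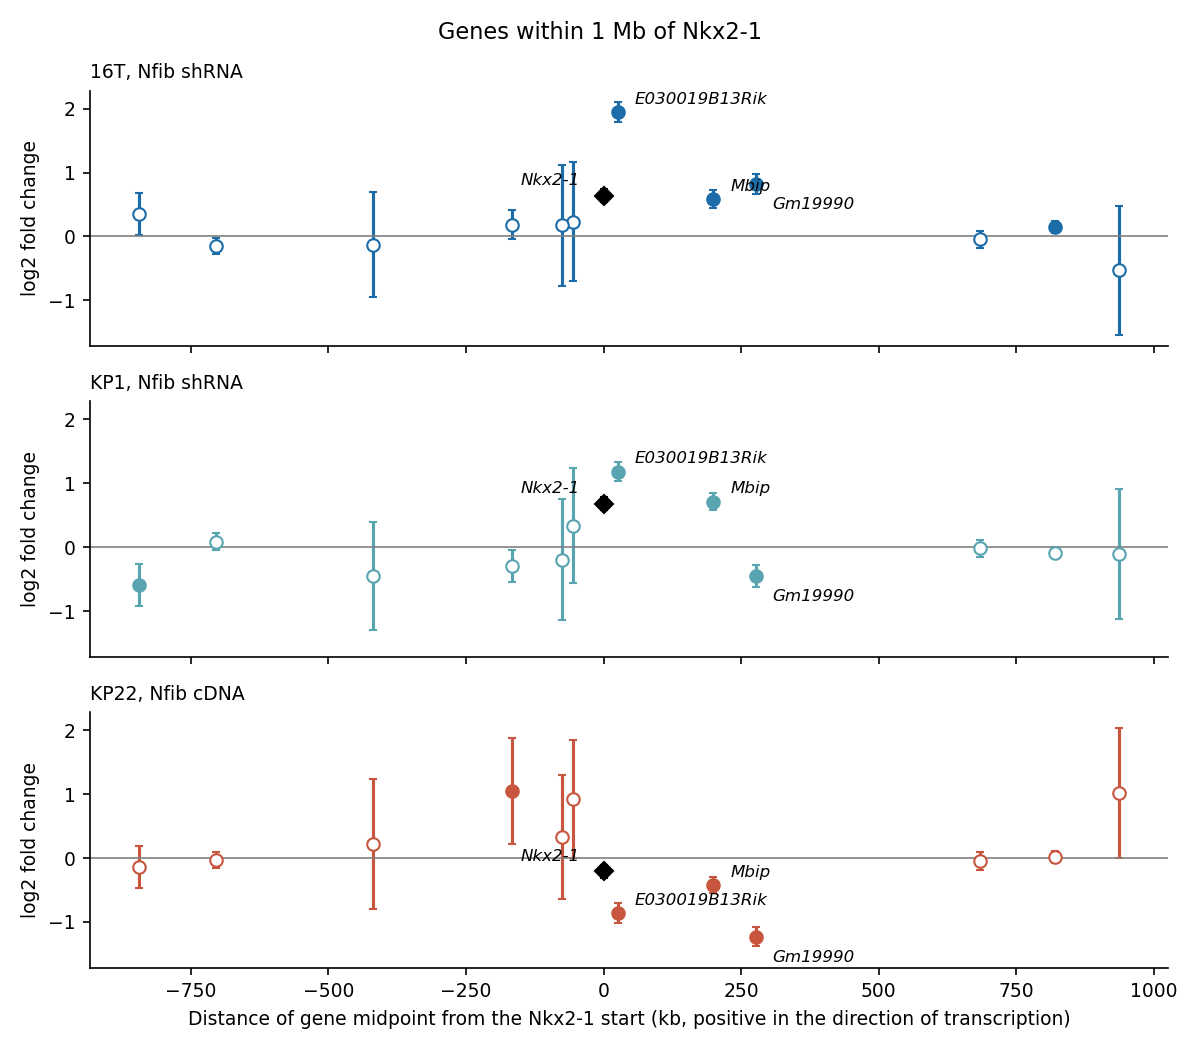
Log2 fold change (vertical axis, deposited values with 95% intervals) of genes within 1 Mb of Nkx2-1 with a mean of at least 10, against the distance of each gene's midpoint from the Nkx2-1 start in kb (positive in the direction of its transcription), 1 panel per line. Open points have an adjusted p of 0.05 or more or none. E030019B13Rik, Mbip and Nkx2-1 (diamond) are above 0 in 16T and KP1 and below 0 in KP22, and Gm19990 is above 0 in 16T alone.

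The FOXA genes rose with the Nfib shRNA, and neither was called lower in KP22. They were not tested against Nkx2-1. Foxa1 rose in all 3 lines, by 0.29 ± 0.048 (16T), 0.45 ± 0.049 (KP1) and 0.37 ± 0.049 (KP22) in the authors' deposited table (adjusted p = 9.61e-09, 6.2e-19 and 1.4e-12). These are 1.22-, 1.37- and 1.29-fold rises, so Foxa1 was higher both where Nfib was lowered and where it was raised. Of 14504 genes tested in all 3 lines, 182 (1.25%) rose in each of them and 146 (1.01%) fell in each. Foxa2 rose by 0.24 ± 0.053 in 16T and 0.23 ± 0.053 in KP1 in the authors' deposited table (adjusted p = 2.44e-05 and 9.85e-05), both 1.17- to 1.18-fold. In KP22 Foxa2 had -0.05 ± 0.054 in the authors' deposited table (adjusted p = 0.58), with a 95% interval from -0.15 to 0.06. The 122 bases of Foxa2 merged from overlapping exons had 0.22 ± 0.18, 0.11 ± 0.18 and -0.26 ± 0.18 in the authors' deposited table, none of them called, at a mean of 350.

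Insm1, the zinc finger repressor, was the member that followed Nfib in all 3 lines. In the authors' deposited table it fell by 0.19 ± 0.039 (16T) and by 0.19 ± 0.038 (KP1) and rose by 0.47 ± 0.039 in KP22 (adjusted p = 3.47e-06, 8.66e-06 and 2.01e-32). The knockdown lines stood at 87.4% and 87.8% of their controls, and KP22 with Nfib cDNA at 1.39-fold. The 2 knockdown effects differed by -0.01 ± 0.055, with a 95% interval from -0.11 to 0.10. A fall with the shRNA and a rise with cDNA, each called, was found in 773 of 14504 genes (5.33%). The opposite pattern, that of Nkx2-1, was found in 691 (4.76%). On chromosome 2, of 61 genes other than members tested in KP22 within 5 Mb of Insm1, 6 rose and 21 fell. Of 93 within 5 Mb of Foxa2, 9 rose and 38 fell, and these windows overlap. Within 1 Mb of Insm1 2 of 14 rose and 2 fell. Over all genes tested in KP22 19.5% were called higher and 18.8% lower.

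Isl1 gave the largest change of any member, and its response differed between the lines. In KP22 with Nfib cDNA it rose by 4.94 ± 0.24 in the authors' deposited table, a 30.8-fold difference with a 95% interval of 22.2 to 42.6 (adjusted p = 3.82e-92), the rank 2 rise of 17544 genes tested. In KP1 it rose too, where Nfib was lowered, by 0.78 ± 0.088 or 1.71-fold in the authors' deposited table (adjusted p = 3.55e-17). In 16T it had 0.02 ± 0.087 in the authors' deposited table (adjusted p = 0.884), with a 95% interval from -0.15 to 0.19. The knockdown effect in 16T minus that in KP1 was -0.76 ± 0.12 (adjusted p = 2.07e-08, normal test of the difference with Benjamini-Hochberg adjustment, in which 29.4% of 15008 genes were called). Of the 2 tested genes within 1 Mb of Isl1, Emb and Parp8, both fell in KP22, Emb by 0.60 ± 0.048 and Parp8 by 0.25 ± 0.077 in the authors' deposited table. Within 5 Mb, however, 16 of 38 tested genes rose in KP22 and 5 fell, beside 19.5% higher and 18.8% lower over all genes.

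Neurod1, at the lowest level of the members, passed the test in KP22. It fell by 1.82 ± 0.19 with Nfib cDNA in the authors' deposited table (adjusted p = 5.37e-21), to 28.4% of the empty vector level, with a 95% interval from -2.18 to -1.45 on the log2 scale. In 16T the authors' deposited table gave -0.47 ± 0.25 (adjusted p = 0.118) and in KP1 0.22 ± 0.18 (adjusted p = 0.39). The 95% intervals, from -0.96 to 0.02 and from -0.13 to 0.57, do not exclude a change in either line. The difference between 16T and KP1 was -0.69 ± 0.31 (adjusted p = 0.0744). Of 8 genes tested within 1 Mb of Neurod1 in KP22, 1 rose and 2 fell, among them the phosphodiesterase gene Pde1a, which rose by 3.17 ± 0.35 in the authors' deposited table, and the integrin gene Itga4, which fell (-1.39 ± 0.26).

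Prox1 changed little in each line. It had 0.13 ± 0.056 in 16T (adjusted p = 0.048), 0.09 ± 0.056 in KP1 (adjusted p = 0.195) and 0.12 ± 0.057 in KP22 (adjusted p = 0.0977) in the authors' deposited table. The 3 values are nearly equal, and the upper ends of their 95% intervals are 0.24, 0.20 and 0.23. The call in 16T was lost under a t reference with 6 degrees (adjusted p = 0.134) and with no filter on the mean (adjusted p = 0.0584).

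Taking the 3 lines in 1 contrast, the mean effect in the direction of higher Nfib was called for 6 of 7 members, where 52.9% of 15008 genes were called. It was 1.38 ± 0.09 for Isl1, 0.29 ± 0.022 for Insm1, -0.12 ± 0.028 for Foxa1, -0.17 ± 0.031 for Foxa2, -0.51 ± 0.030 for Nkx2-1 and -0.52 ± 0.12 for Neurod1 (adjusted p between 9.24e-65 and 4.85e-05, normal test with Benjamini-Hochberg adjustment). Prox1 had -0.04 ± 0.032 (adjusted p = 0.369). For Isl1 and Neurod1 this mean rests on KP22, and for Foxa1 it averages effects of both signs, so it does not stand for a common response. A further test took the mean knockdown effect with its sign reversed, so that it points to higher Nfib, minus the KP22 effect. It was called for all 7 members (background 36.7%). Under a t reference with 6 degrees the calls of Foxa2 (adjusted p = 0.0888) and Prox1 (adjusted p = 0.0636) were lost. The difference was -5.34 ± 0.25 for Isl1, 1.94 ± 0.24 for Neurod1 and -0.74 ± 0.060 for Foxa1, and between -0.45 and -0.19 for the other 4. Knockdown and cDNA shifted Nfib by different amounts, and line and vector cannot be told apart in this difference.

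Genes with a pattern like that of a member were named by the smallest Euclidean distance over the 3 log2 fold changes among the 12287 genes whose mean reached 100. For Insm1 these were Dopey2, Pitrm1 and Xpo5, at distances of 0.029, 0.035 and 0.037. For Nkx2-1 they were Leprotl1, Tcerg1l and Pot1a (0.096, 0.101 and 0.111), for Foxa1 they were Tjp3, Ercc6l and Nlgn3 (0.034, 0.071 and 0.082), and for Foxa2 they were Zfp612, Sec24b and Ercc6l2 (0.019, 0.038 and 0.039). Isl1 had no close match: its nearest genes were Twist1, Mcam and Fam124a at 1.23, 1.24 and 1.39. In KP22 these had 3.88 ± 0.27, 3.74 ± 0.13 and 4.68 ± 0.38 in the authors' deposited table. The points share the libraries, and 3 comparisons carry little information on likeness.

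Not all paralogues of the members were tested, and at most 3 were called in a line. Of 13 paralogues, 5 were tested in 16T, with 0 higher and 3 lower, 5 in KP1, with 0 and 1, and 9 in KP22, with 2 and 0. That is 60.0%, 20.0% and 22.2% of those tested, beside 45.3%, 37.2% and 38.4% of all genes. A total of 6 had a mean under 10. Neurod4, a proneural relative of Neurod1, had -1.61 ± 0.16 (16T), -0.19 ± 0.15 (KP1) and 2.81 ± 0.26 (KP22) in the authors' deposited table (adjusted p = 1.42e-22, 0.387 and 3.69e-26). In KP22 it therefore rose 6.99-fold while Neurod1 fell. Isl2, the LIM homeodomain relative of Isl1, had -0.91 ± 0.26, -0.98 ± 0.41 and 1.51 ± 0.30 in the authors' deposited table (adjusted p = 0.00231, 0.0488 and 3.32e-06). Isl1 and Isl2 both rose in KP22, while in KP1 Isl1 rose and Isl2 fell. Nkx2-2, a homeodomain gene of endocrine and neural precursors, fell in 16T (-0.94 ± 0.26, adjusted p = 0.00132) and was listed at -0.41 ± 0.26 for KP1 and 0.41 ± 0.46 for KP22 in the authors' deposited table.

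**Figure D3:**
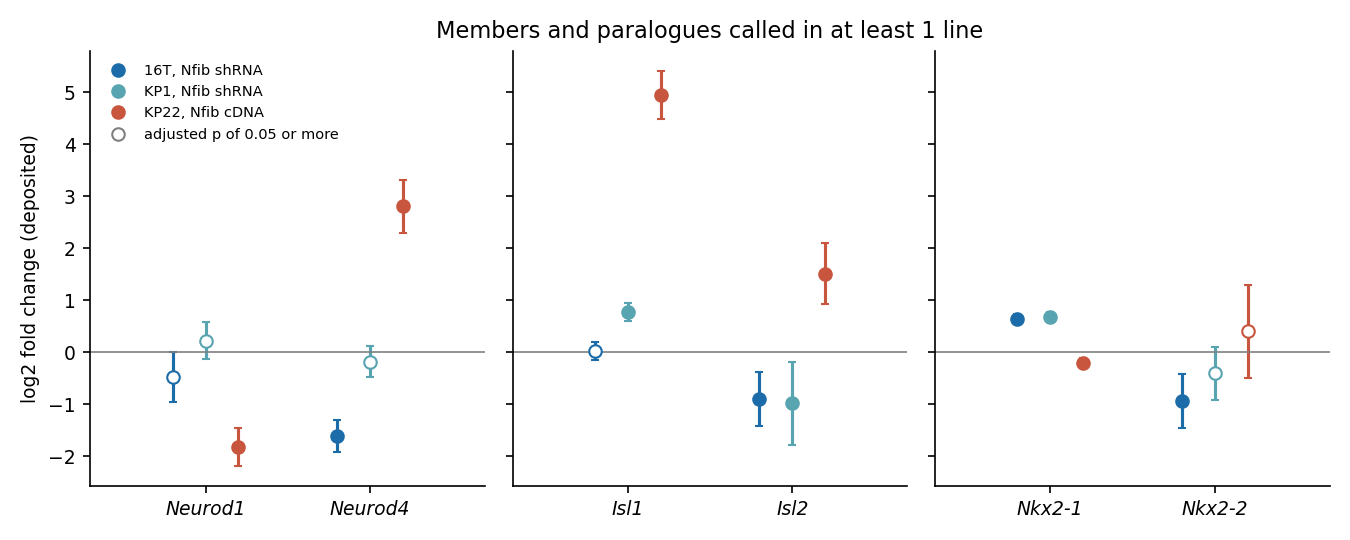
Log2 fold change (vertical axis, deposited values with 95% intervals) of Neurod1, Isl1 and Nkx2-1 beside the paralogue of each that was called in at least 1 line. Open points have an adjusted p of 0.05 or more. In KP22 Neurod1 is at -1.82 and Neurod4 at 2.81, and in 16T and KP1 Nkx2-1 is above 0 and Nkx2-2 below it.

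Other transcription factors of neural and neuroendocrine fate fell more often than they rose in 16T and rose more often than they fell in KP22. Of 37 listed, 25 were tested in 16T (4 higher, 14 lower), 25 in KP1 (8 and 6) and 31 in KP22 (14 and 4). Their medians were -0.36, -0.15 and 0.51, beside -0.05, -0.02 and 0.04 over all genes tested. In all, 72.0%, 56.0% and 58.1% of those tested were called, beside 45.3%, 37.2% and 38.4% of all genes. Onecut1 fell in 16T (-1.35 ± 0.31) and KP1 (-1.75 ± 0.30), and Mycl fell in both (-1.27 ± 0.030 and -1.41 ± 0.030) in the authors' deposited table. The POU factor gene Pou3f2 fell in 16T (-1.20 ± 0.29) and rose in KP22 (2.27 ± 0.33), and Mycl (1.52 ± 0.030) and Lmo1 (1.46 ± 0.11) rose there too in the authors' deposited table. In KP1, where 8 rose and 6 fell, Sox2 rose (1.83 ± 0.20) in the authors' deposited table. An exception in KP22 was the islet factor gene Nkx6-1, which fell there (-1.63 ± 0.24).

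Genes that carry out neuroendocrine function were counted next. Of 30 effector genes, 17 rose and 8 fell in 16T, 17 rose and 7 fell in KP1, and 5 rose and 21 fell in KP22. That is 83.3%, 80.0% and 86.7% called, beside 45.3%, 37.2% and 38.4% of all genes. This background was not matched for level, and the median of the effector genes' mean normalized counts was 5484. Their median log2 fold changes were 0.39, 0.20 and -0.60, beside -0.05, -0.02 and 0.04 over all genes tested. Pcsk2, a prohormone convertase, had 1.52 ± 0.067 in 16T and -2.64 ± 0.081 in KP22, and Dll4, a Notch ligand, had -1.51 ± 0.075 (16T), -1.51 ± 0.075 (KP1) and 2.38 ± 0.087 (KP22) in the authors' deposited table. Pcsk2 was not among the 4 largest called changes in KP1. It lies within 5 Mb of both Insm1 and Foxa2, as the largest called change there in KP22. The largest change of the list was a fall in each line: Grp in 16T (-2.46 ± 0.32), Stmn2 in KP1 (-1.88 ± 0.20) and Chgb in KP22 (-4.27 ± 0.059). Of 15 antagonists of neuroendocrine fate, 11 were tested in 16T (6 higher, 0 lower), 11 in KP1 (5 and 2) and 14 in KP22 (4 and 1). Their shares called were 54.5%, 63.6% and 35.7%, the last of them below that of all genes. The Notch effector genes Hes1 and Hey1 rose in 16T (1.15 ± 0.29 and 0.86 ± 0.11) and KP1 (0.96 ± 0.33 and 0.58 ± 0.11), and Heyl rose in KP22 (3.19 ± 0.22) in the authors' deposited table. The largest changes of this list in KP1 were falls, of the SOX factor gene Sox9 (-1.73 ± 0.17) and of Wwtr1 (-1.63 ± 0.48), which encodes the coactivator TAZ, in the authors' deposited table.

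Genes of the lung programme that NKX2-1 and FOXA proteins serve in normal epithelium ranged widely in level and were called in both directions. Of 24 listed, 23 were in the table and 9 of these had a mean under 10, 6 of them at 0. In 16T 4 of 13 tested genes rose and 5 fell, in KP1 1 rose and 5 fell, and in KP22 1 of 16 rose and 4 fell. The shares called were 69.2%, 46.2% and 31.2%, beside 45.3%, 37.2% and 38.4% of all genes. Muc1, a membrane mucin gene, had the pattern of Nkx2-1, with 0.65 ± 0.24, 1.36 ± 0.23 and -1.05 ± 0.18 in the authors' deposited table. The surfactant gene Sftpc fell in 16T (-2.07 ± 0.25), and the water channel gene Aqp5 fell in 16T (-0.90 ± 0.29) and KP1 (-1.35 ± 0.30) in the authors' deposited table. Of 18 gut and liver genes of the FOXA programme, 1 of 7 tested rose and 1 fell in 16T, 0 rose and 2 fell in KP1, and 2 of 12 rose and 2 fell in KP22. These shares, 28.6%, 28.6% and 33.3% called, were below those of all genes, but with so few genes tested this difference carries little weight. The largest called change of this list was that of Pck1, which fell by 7.86 ± 0.44 in KP22 in the authors' deposited table. Ttr, which encodes transthyretin, rose in 16T (0.95 ± 0.17) and fell in KP1 (-0.91 ± 0.19) in the authors' deposited table, while Foxa1 and Foxa2 rose in both.

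**Figure D4:**
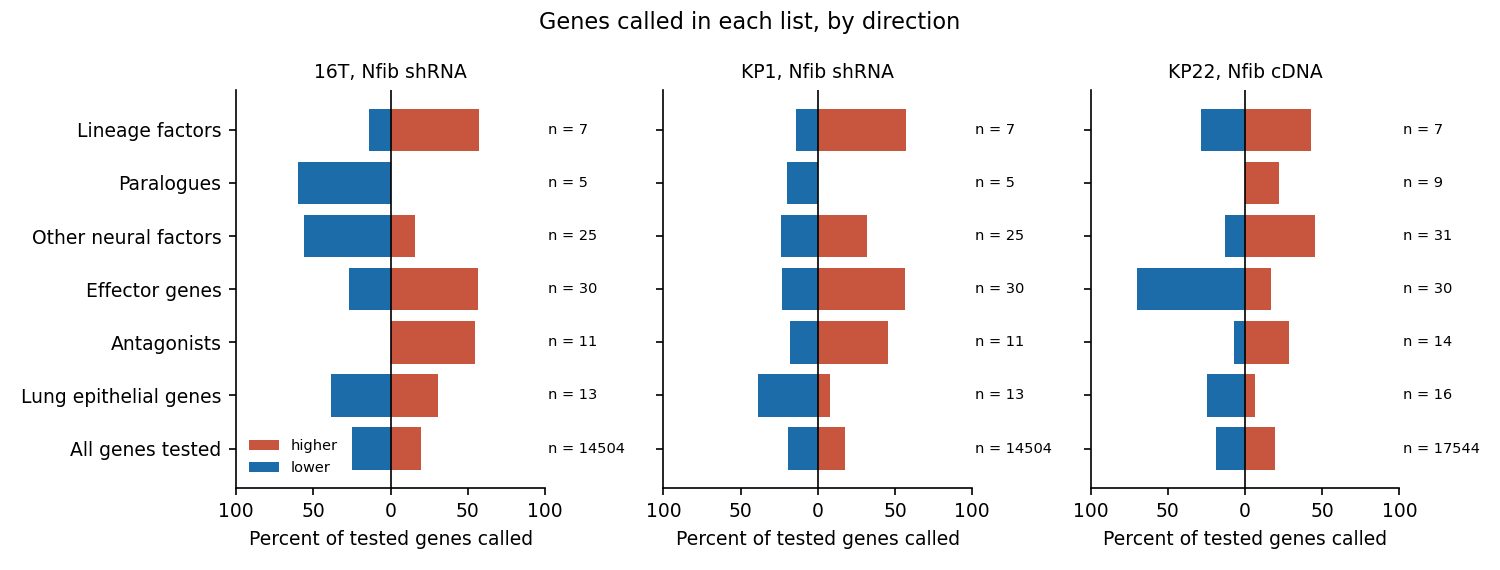
Percent of tested genes called as higher (right of 0) or lower (left of 0) in each list, 1 panel per line, with the number tested at the right and all genes tested in the bottom row. In KP22 the other neural factors lie mainly to the right (14 of 31 higher) and the effector genes mainly to the left (21 of 30 lower).

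Within 1 Mb of the members the share of genes called did not exceed the background. Over the windows of 1 Mb around the 7 members, counting a gene once for each member it lies near, 44.6% of 56 tested genes were called in 16T, 35.7% of 56 in KP1 and 36.1% of 72 in KP22. Near Insm1 the exchanger gene Slc24a3 had 2.19 ± 0.18, 1.61 ± 0.18 and -0.89 ± 0.22 in 16T, KP1 and KP22 in the authors' deposited table, opposite in sign to Insm1 in each line. Near Foxa2 the cystatin gene Cst3 rose in 16T (0.40 ± 0.061) and KP1 (0.59 ± 0.062) and fell in KP22 (-0.96 ± 0.063) in the authors' deposited table. Near Prox1 the potassium channel gene Kcnk2 rose in 16T (1.34 ± 0.084) and KP1 (2.34 ± 0.087) and fell in KP22 (-0.62 ± 0.078) in the authors' deposited table. Prox1 itself moved by 0.13 at most.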

How the data were processed

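RNA was measured in 12 samples of 3 mouse tumor lines. The build mm10 and the tools TopHat, DESeq, DESeq2 and bedtools are named, per the submitters' processing notes; their versions are not stated there. Per the labels, libraries were made with an Illumina TruSeq v2 kit. The authors deposited a table of comparisons for 28112 features. They labelled this table cqnnorm, and the settings of that normalization are not known here. Per the file headers it gives, for each, a mean normalized count (a signal), log2 fold changes with SEs, Wald scores, p-values and adjusted p-values. The deposited knockdown effect equals the mean of 16T and KP1. The largest SE is 0.521, so the log2 fold changes may be shrunken. Another deposited list gives exon intervals, with a score that counts the merged exons; 4886 features with joined names were set aside, those of Nkx2-1 and Foxa2 excepted.

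Adjusted p-values for single lines are the authors'. Contrasts across lines were computed here for the 15008 genes whose mean reached 10. SEs were combined as if independent, p-values came from the normal distribution and were adjusted by Benjamini-Hochberg (Python 3.11.15, SciPy 1.17.1). The contrasts were checked on simulated data. Intervals are 95%, from the SE. Library depth is unknown. Members and lists were chosen with earlier results of these data known. Named genes are the members, up to 4 called genes with the largest change per list and line, the 3 nearest genes by pattern for members called in at least 2 lines, and the largest called neighbour, of which the text gives a selection. A gene counts as a neighbour where its lowest exon coordinate lies within 1 Mb of a member. No promoter of Insm1 was used.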

Additional observations from a re-analysis of the deposited data

Results flagged for a closer look

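Differences between lines were flagged where the test of the difference was called. The effect of the Nfib shRNA on Isl1 was lower in 16T than in KP1, by -0.76 on the log2 scale. The effect in the direction of higher Nfib differed between the knockdown lines and KP22 for all 7 members, with knockdown minus KP22 values of -5.34 for Isl1, 1.94 for Neurod1, -0.74 for Foxa1, -0.45 for Nkx2-1, -0.28 for Insm1, -0.23 for Prox1 and -0.19 for Foxa2. Insm1 moved with Nfib in both designs and by more in KP22, while Nkx2-1 moved against Nfib in both and by less in KP22. For Foxa1 the effects have opposite signs. Under a t reference with 6 degrees the differences of Foxa2 (adjusted p = 0.0888) and Prox1 (adjusted p = 0.0636) were not called.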

How the results depend on the processing

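The number of members called and the share of their neighbours called kept to within 1.5 times (counts) or the 95% binomial interval (share) in 42 recomputed values and moved in 8. With the authors' deposited test against 0.5, 0 members were called in 16T, 2 in KP1, 1 in the mean of both knockdown lines and 2 in KP22. Requiring a change of at least 1 left 0 in 16T, 0 in KP1, 0 in the mean of both knockdown lines and 2 in KP22. Of the recomputed values of single members, 289 kept their direction and call, 46 lost the call (16 of them under the test against 0.5 and 19 with the change of at least 1), 1 gained it and 1 changed sign. The Insm1 difference between 16T and KP1, not called, went from -0.01 to 0.024 when recentred on the median gene. Recentring also brought the Prox1 mean effect to -0.07 (adjusted p = 0.0426). Leaving out libraries could not be tried without values per sample. No paired analysis was possible because the table's columns carry no replicates. Depth per library is unknown, so the low mean of Neurod1 limits what can be said of it in 16T and KP1.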
